A study of Mus musculus with 12 samples.

Results

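The genes described here carry glucose into brain cells, trap it there and report fuel supply. They comprise 3 facilitative glucose transporters (Slc2a1, Slc2a3 and Slc2a4), 2 hexokinases (Hk1 and Hk2), the 2 subunits of the neuronal ATP-sensitive potassium channel (Kcnj11 and Abcc8) and the 2 catalytic subunits of AMP-activated protein kinase (Prkaa1 and Prkaa2). They were chosen by name, as the rows of the deposited count table whose Ensembl identifier maps to these symbols. All 9 were found among 78334 gene identifiers, and all 9 were among the 25562 genes with enough counts to be tested.

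RNA of the hypothalamus, the brain region that governs appetite and energy balance, was sequenced in 12 libraries from male C57BL/6 mice. Control mice (n = 3) ate a standard diet and received the vehicle of the treatments. Diabetes mice (n = 4) were injected once with streptozotocin, a toxin of pancreatic beta cells, at 70 mg/kg on postnatal day 2, ate a high-fat diet (60% of energy from fat) for 8 weeks from an age of 3 weeks, and received the vehicle. The curcumin (n = 3) and garlic (n = 2) groups had the same injection and diet and were gavaged every day for 28 days with curcumin, a turmeric polyphenol, at 50 mg/kg or with aged garlic extract at 200 mg/kg. Injection and diet were not given separately, so a comparison with control cannot tell them apart. The protocol places the start of treatment at week 7 of the diet and the design text after 11 weeks, and this was not resolved. The labels do not say that each library came from its own animal, so the p-values measure how much these libraries vary, and that variation may include technical steps. In a bulk sample, fewer cells of a type and less RNA per cell cannot be told apart.

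Glucose crosses the blood-brain barrier through GLUT1, the product of Slc2a1, which is abundant in brain endothelial cells and also present in astrocytes. Neurons take glucose up mainly through GLUT3 (Slc2a3), and a small set of neurons also uses the insulin-responsive GLUT4 (Slc2a4). Hexokinase phosphorylates glucose so that it stays in the cell, HK1 being the main brain form. In glucose-sensing neurons of the hypothalamus, ATP from glucose metabolism closes a potassium channel built from the pore Kir6.2 (Kcnj11) and the sulfonylurea receptor SUR1 (Abcc8), which raises firing. AMP-activated protein kinase, whose catalytic subunits are alpha1 (Prkaa1) and alpha2 (Prkaa2), responds to the opposite state, a fall in cellular energy, and in the hypothalamus it is known to promote feeding.

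Total counts ran from 12950017 to 30271706 per library. Thinned to the lowest of these totals, control libraries would show 25766 to 33157 genes, diabetes libraries 20133 to 22515, curcumin libraries 20917 to 29126 and garlic libraries 33125 to 34719. Levels are given as CPM, the usual depth-scaled unit, here relative to the TMM-scaled library total. Several libraries stood apart. Curcumin replicate 2 had summed hypothalamic markers of 47.4 CPM, against 559 to 4498 CPM in the other 11 libraries, with Hcrt, the orexin precursor, at 0 and Nkx2-1, a defining transcription factor of the ventral hypothalamus, and Nr5a1 at 0.0497 CPM each, although Six3 was at 39.0 CPM. It also had the highest sums of thalamus and habenula markers (471 CPM) and of endothelial and pericyte markers (676 CPM). Most of the former was Tcf7l2, at 325 CPM. Lef1 and Pou4f1 were also highest there, but Prkcd, Gbx2, Rorb and Ntng1 were within the range of the other libraries. Diabetes replicate 4 had summed pituitary markers of 857 CPM, against at most 15.3 CPM elsewhere, and blood markers of 1755 CPM. The other diabetes libraries were also high in blood markers, at 264 to 469 CPM against 87.5 to 196 CPM in control, and all 4 were low in thalamus and habenula markers, at 83.8 to 124 CPM against 153 to 326 CPM. The hypothalamic sum was 2121 to 4498 CPM in diabetes, above control (1466 to 2046 CPM) and curcumin (47.4 to 1503 CPM). In garlic it was 968 to 2186 CPM. Of its 13 genes, 9 were higher and 4 lower in diabetes than in control. With curcumin 12 were lower and 1 was higher than in diabetes. The part of these differences in the values of the 9 genes was not tested. Control replicate 3 had an astrocyte marker sum of 588 CPM, against 1597 to 2902 CPM elsewhere. Curcumin replicate 2 and diabetes replicate 4 are called the doubted libraries below, and several results on the 9 genes are given without them too. For single genes outside the 9, changes are given with all libraries only.

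The promoters of 5 of the 9 genes were found in a RefSeq table (GRCm38.p6), each covering 250 bases before and 50 bases after the start of transcription, while Slc2a3, Slc2a4, Kcnj11 and Abcc8 were not matched. Those of Slc2a1 and Prkaa1 are printed because the comparisons below turn most on these 2 genes among the matched ones. Capitals mark the GC box, searched as GGGCGG on both strands.
Slc2a1, chr4:119108495-119108794, plus strand: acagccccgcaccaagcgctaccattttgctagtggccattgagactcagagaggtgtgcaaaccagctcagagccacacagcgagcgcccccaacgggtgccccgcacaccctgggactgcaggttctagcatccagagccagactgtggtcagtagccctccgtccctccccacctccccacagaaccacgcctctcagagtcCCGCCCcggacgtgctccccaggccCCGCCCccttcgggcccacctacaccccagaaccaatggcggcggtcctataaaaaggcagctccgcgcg
Prkaa1, chr15:5143611-5143910, plus strand: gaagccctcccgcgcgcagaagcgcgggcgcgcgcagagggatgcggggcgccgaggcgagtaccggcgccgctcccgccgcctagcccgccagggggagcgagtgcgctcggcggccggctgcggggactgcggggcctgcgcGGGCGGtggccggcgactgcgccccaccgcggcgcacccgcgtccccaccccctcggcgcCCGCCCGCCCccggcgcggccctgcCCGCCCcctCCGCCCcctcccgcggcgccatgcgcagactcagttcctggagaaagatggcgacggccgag
The Slc2a1 promoter held 65.3% G and C, 18 CpG dinucleotides and 2 GC boxes. It also held 1 match each to CCAAT and to ACGTG, the core of the hypoxia response element. The Prkaa1 promoter held 82.0% G and C, 52 CpG and 5 GC boxes, 2 of which share bases, and no match to CCAAT or ACGTG. The median over 32851 promoters of this length was 7 CpG, and 99.4% had fewer than that of Prkaa1. A GC box was present in 35.7% of them, CCAAT in 37.4% and ACGTG in 19.6%. The E-box CACGTG, which contains ACGTG, was in 7.15% of all promoters and in neither of the printed ones. A match is a description of the letters and not a site of binding.

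Compared per kilobase of annotated exon, with all exons of a gene merged, Hk1 and Slc2a1 were the highest of the 9 genes. The order of Slc2a1 and Slc2a3 rests on that length. Uncorrected, their control means were 82.0 and 114 CPM. In control libraries the mean level per kilobase was 36.0 CPM for Hk1, 23.4 for Slc2a1, 15.7 for Slc2a3, 9.58 for Prkaa1, 7.15 for Kcnj11, 3.59 for Abcc8, 2.87 for Prkaa2, 0.756 for Hk2 and 0.599 for Slc2a4. The hexokinase and transporter of the brain's main glucose route therefore stood well above Hk2 and Slc2a4, the forms best known from muscle and fat. In diabetes libraries Slc2a1 was at 29.7 and Hk1 at 31.9 CPM per kilobase. In curcumin libraries Slc2a1, at 42.5, had the higher mean of the pair, Hk1 being at 36.2.

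**Figure D1:**
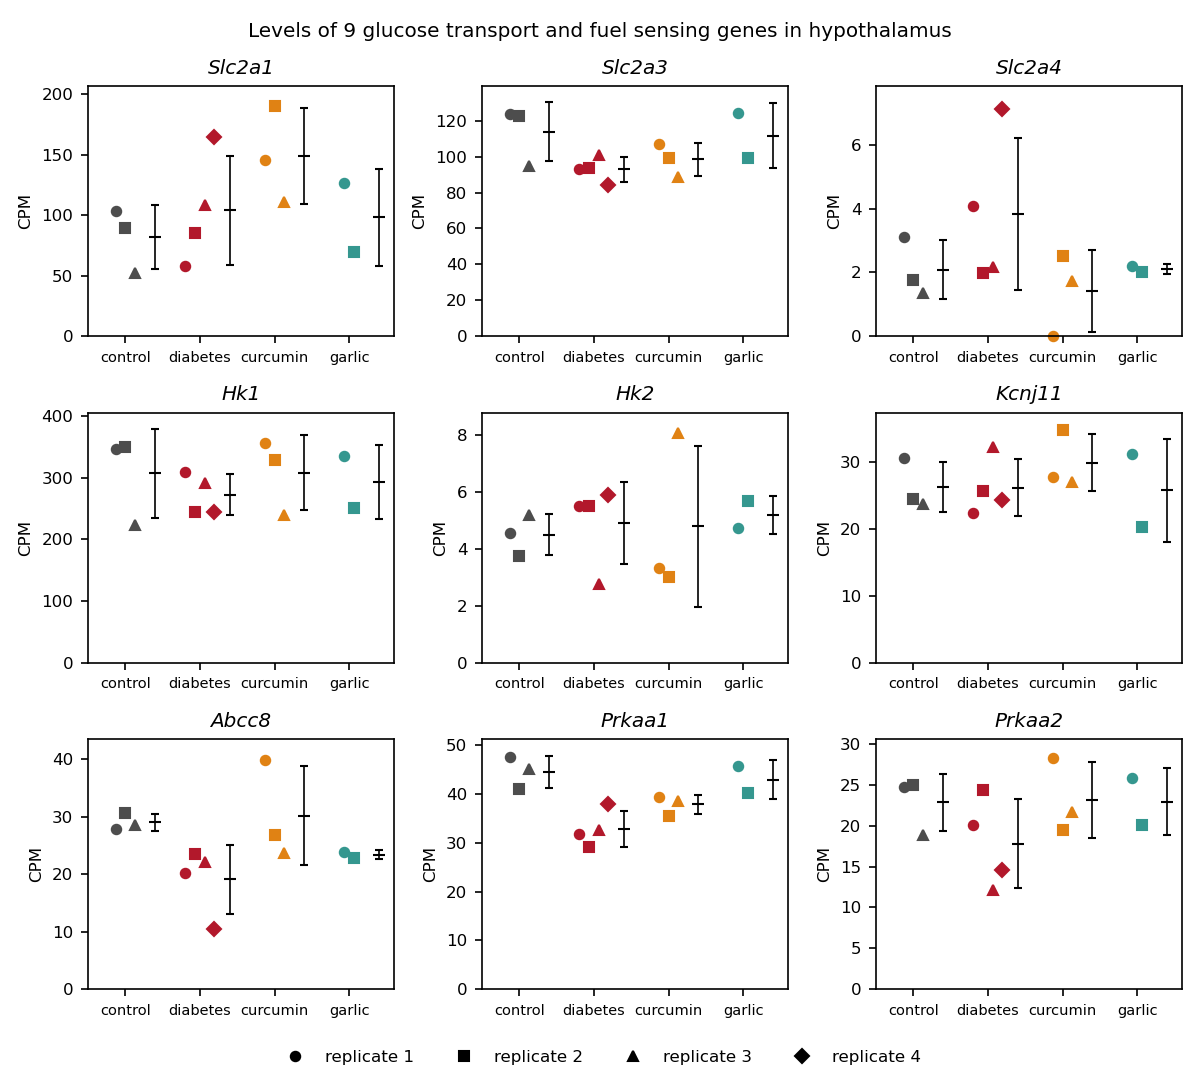
Level of each gene in CPM (vertical axis, from 0) in each of the 12 libraries, by group. Symbols are replicates, and the bar beside each group is the mean with the SD over its libraries. Abcc8 and Prkaa1 are lower in all 4 diabetes libraries than in all 3 control libraries, and in the other 7 panels those 2 groups overlap.

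No member passed the test in any comparison. By edgeR's quasi-likelihood test with Benjamini-Hochberg adjustment, 0 of 9 were called between diabetes and control, beside 0.0156% of all genes tested. The count was 0 of 9 between curcumin and diabetes, beside 0.09% of all genes, and 0 of 9 between garlic and diabetes, between each treatment and control and between the treatments, where 0% of all genes were called. DESeq2 and limma-voom with library weights also called 0 members in each of the 6 comparisons, although they called more genes than edgeR in the 3 main ones. Between diabetes and control DESeq2 called 1.25% of the 50209 genes with any count, and limma-voom 4.6% of the 25562 genes tested. The shares were 2.86% and 0.481% between curcumin and diabetes, and 0.97% and 1.68% between garlic and diabetes. Genes to which DESeq2 gave no adjusted p count in its shares as not called. DESeq2 gave Slc2a4 no adjusted p between garlic and diabetes. At an unadjusted p under 0.05, 2 members, Abcc8 and Prkaa1, were lower in diabetes than in control, beside 7.48% of all genes. With curcumin 1 member, Abcc8, was higher than in diabetes, beside 10.5% of all genes, and with garlic 0 members differed from diabetes, beside 10.9%. Between diabetes and control, the edgeR p values of both members were close to 0.05 (0.0489 and 0.0498). The count of such members depended on the processing. It was 0 with RLE scaling, and also 0 when lengths were corrected or detected genes entered as a covariate. It was 1 with DESeq2, without the low-count filter, with a stricter one and with the replicate block. With 1 library left out it was 0 or 1. It was 2 in a fit of these groups alone and 3 with limma-voom.

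The same 2 genes, Abcc8 and Prkaa1, were the members whose diabetes and control libraries did not overlap, both lower in diabetes, as were 8.94% of all genes. With curcumin only Abcc8 did not overlap with diabetes and was higher, as were 5.43% of all genes. With garlic only Prkaa1 was higher without overlap, as were 13.2% of all genes. In diabetes against control, 6 of the 9 log2 changes were negative, with a median of -0.17, where 54.0% of all genes were negative with a median of -0.07. In curcumin against diabetes, 7 of 9 were positive (median 0.19), where 53.1% of all genes were positive (median 0.07), and in garlic against diabetes 6 of 9 (median 0.11), where 53.7% were (median 0.07). These 3 comparisons share the diabetes libraries, so opposite signs in them are not independent.

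**Figure D2:**
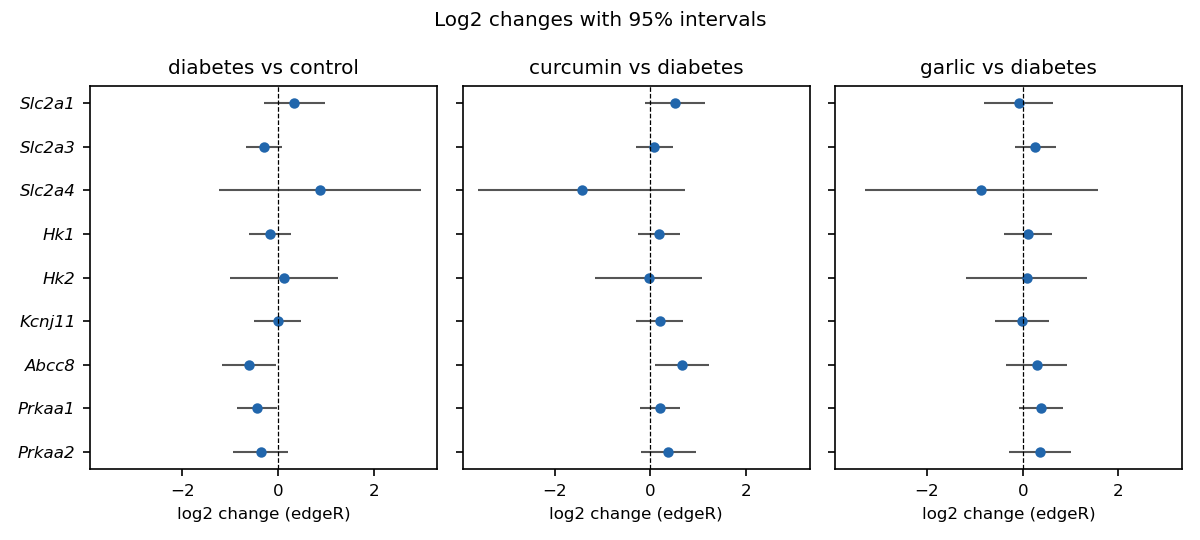
Log2 change by edgeR (horizontal axis) of each gene in the 3 main comparisons, with its 95% interval from the normal approximation; the dashed line marks no change. The intervals of Slc2a4 and Hk2, the genes of lowest level, are the widest. Those that do not span 0 are of Abcc8 and Prkaa1 in diabetes against control and of Abcc8 in curcumin against diabetes.

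Slc2a1 (ENSMUSG00000028645), the barrier transporter, stood at 104, 89.8 and 52.5 CPM in control replicates 1 to 3 and at 57.7, 85.2, 108 and 165 CPM in diabetes replicates 1 to 4. The curcumin libraries were at 145, 190.2 and 111 CPM and the garlic libraries at 126 and 69.9 CPM. All 3 curcumin libraries were thus above all 3 control libraries, while diabetes overlapped with every other group. Between curcumin and control 8.65% of all genes did not overlap, in either direction. By mean the order was curcumin (149 ± 39.7 CPM, SD, n = 3), diabetes (104 ± 45.4, n = 4), garlic (98.2 ± 40.0, n = 2) and control (82.0 ± 26.4, n = 3), and each neighbouring pair of groups in that order overlapped. Per kilobase and within a library, Slc2a1 was 1.14 to 1.73 times Slc2a3 in control, 1.28 to 4.04 times in diabetes, 2.58 to 3.95 times with curcumin and 1.46 to 2.10 times with garlic.

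The log2 change of Slc2a1 between diabetes and control was 0.34 ± 0.33 (SE, edgeR, adjusted p = 0.824), with a 95% interval of -0.30 to 0.98. It was 0.03 without diabetes replicate 4, 0.10 without control replicate 3, 0.09 with the replicate block, 0.18 by limma-voom and 0.02 without the 2 doubted libraries. In the other direction, it was 0.54 without diabetes replicate 1, 0.55 without control replicate 1 and 0.68 with the covariate for detected genes. Between curcumin and diabetes it was 0.52 ± 0.32 (edgeR, adjusted p = 0.445), or 0.83 without diabetes replicate 4, 0.32 without diabetes replicate 1 and 0.34 without curcumin replicate 2. Between garlic and diabetes it was -0.08 ± 0.37 (edgeR, adjusted p = 1.00).

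Between curcumin and control, the log2 change of Slc2a1 was 0.86 ± 0.35, with an unadjusted p of 0.0237 by edgeR and an adjusted p of 1.00. At an unadjusted p under 0.05, 1.06% of all genes were higher in that comparison, and Slc2a1 was the only such member. The change was 0.61 without curcumin replicate 2, 0.62 without control replicate 3 and 0.64 without the 2 doubted libraries, where the unadjusted p was 0.0623. In garlic against control and curcumin against garlic, 0 members had an unadjusted p under 0.05, beside 0.11% and 1.6% of all genes.

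Slc2a1 was set beside 13 endothelial and pericyte markers, which include Cldn5, Pecam1 and Flt1. Their summed level was 189.6 to 224 CPM in control libraries, 166 to 331 CPM in diabetes, 249.8 to 676 CPM with curcumin and 273 to 431 CPM with garlic. Over the 12 libraries, Pearson's r between the log2 levels of Slc2a1 and of that sum was 0.74 (permutation p = 0.00562, adjusted p = 0.0759 over 27 relations) and Spearman's rho was 0.69 (permutation p = 0.0157, adjusted p = 0.106). With the 2 libraries farthest from the median sum left out, curcumin replicate 2 and garlic replicate 1, r was 0.61 (permutation p = 0.0601), so the relation, which did not pass after adjustment, rests in part on those libraries. With the summed astrocyte markers r of Slc2a1 was 0.62 (permutation p = 0.0187, adjusted p = 0.168). The part of vessel content in the Slc2a1 values was not tested.

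**Figure D3:**
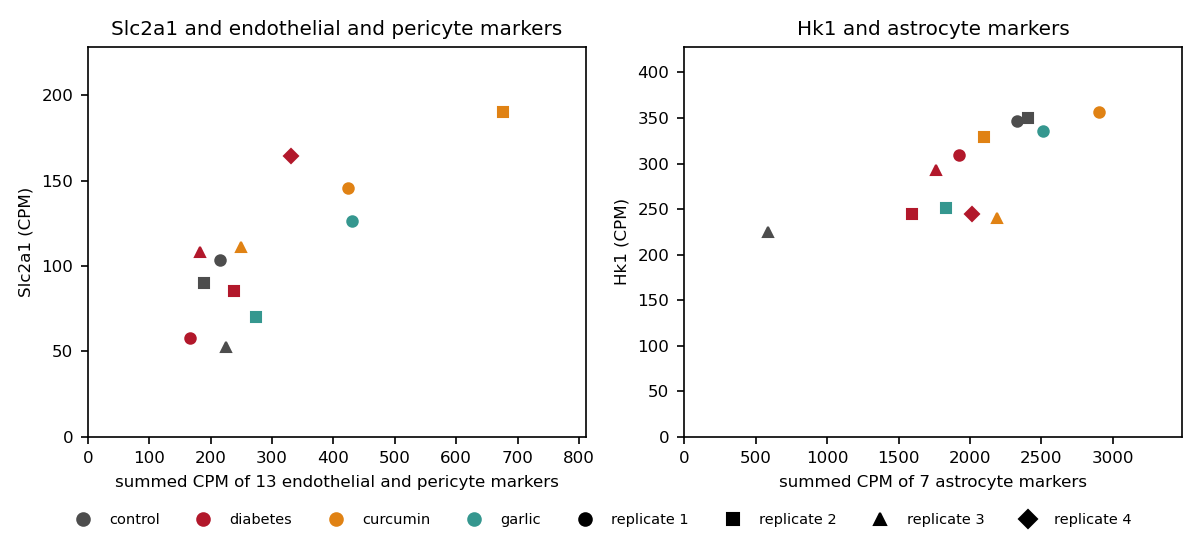
Left, Slc2a1 against the summed level of 13 endothelial and pericyte markers; right, Hk1 against the summed level of 7 astrocyte markers; all axes in CPM, 1 point per library, coloured by group. Curcumin replicate 2 is the highest point of the left panel, at 190.2 CPM of Slc2a1, and control replicate 3 the lowest of the right, at 224 CPM of Hk1.

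Slc2a3 (ENSMUSG00000003153), the neuronal transporter, varied less. Its levels were 124, 123 and 94.9 CPM in control, 93.2, 93.7, 101 and 84.2 in diabetes, 107, 99.5 and 89.0 in curcumin and 125 and 99.2 in garlic libraries. Control replicate 3 lay within the diabetes range, and the other 2 control libraries were above it. The log2 change was -0.29 ± 0.19 between diabetes and control (edgeR, adjusted p = 0.627), 0.08 ± 0.20 between curcumin and diabetes (adjusted p = 0.899) and 0.27 ± 0.22 between garlic and diabetes (adjusted p = 0.836). By mean the order was control (114 ± 16.6 CPM), garlic (112 ± 17.9), curcumin (98.5 ± 9.05) and diabetes (93.1 ± 6.91), and each neighbouring pair overlapped. A pseudogene, Gm4482, lies within Slc2a3 on the same strand and held 2327 counts over the 12 libraries, against 25107 for Slc2a3. How such reads were assigned is not given in the sources used here, so the split between the 2 is uncertain.

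Slc2a4 (ENSMUSG00000018566), the insulin-responsive transporter, had the lowest level of the 9 genes in control libraries, with 25 to 138 counts in 11 of the 12 libraries. It stood at 3.12, 1.77 and 1.36 CPM in control, 4.10, 1.97, 2.18 and 7.13 in diabetes and 2.22 and 2.00 in garlic libraries. In curcumin libraries it had 0 counts in replicate 1, where 3 counts would be 0.142 CPM, and was at 2.53 and 1.73 CPM in replicates 2 and 3. The highest level was in diabetes replicate 4. The log2 change was 0.88 ± 1.08 between diabetes and control (edgeR, adjusted p = 0.900), with a 95% interval of -1.23 to 3.00, and over the alternatives it ranged from 0.39 without the 2 doubted libraries to 2.44 with the covariate for detected genes. Between curcumin and diabetes it was -1.43 ± 1.10 (adjusted p = 0.570), with a range of -2.31 with that covariate to -0.85 without curcumin replicate 1. Between garlic and diabetes it was -0.87 ± 1.25 (adjusted p = 0.994), with a range of -3.23 with the covariate to -0.36 without the doubted libraries.

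Other carriers of sugar and of lactate and pyruvate formed a list of 15 genes, of which 13 were tested and 0 passed in any of the 3 main comparisons. Those of smallest p in diabetes against control were Txnip, which drives glucose transporters off the membrane (log2 change 1.07 ± 0.41, edgeR, adjusted p = 0.330), and Bsg, the chaperone of the lactate carriers (0.56 ± 0.24, adjusted p = 0.360). Txnip was at 15.6, 26.1, 24.4 and 62.8 CPM in diabetes, overlapping with control at 20.6, 14.3 and 11.1 CPM. Bsg was at 609 to 908 CPM in diabetes and 494 to 555 CPM in control, without overlap, as for 14.7% of all genes in either direction. In curcumin against diabetes they were Slc16a1, the monocarboxylate carrier MCT1 of vessels and glia (0.71 ± 0.32, adjusted p = 0.265), and Txnip (-0.75 ± 0.41, adjusted p = 0.363). Slc16a1 was at 22.1, 73.7 and 44.0 CPM in curcumin replicates 1 to 3, where the endothelial and pericyte sum was 423, 676 and 249.8 CPM, and at 21.7 to 36.4 CPM in diabetes. In garlic against diabetes they were Slc2a13, a proton-coupled inositol carrier (0.70 ± 0.27, adjusted p = 0.388), and Bsg (-0.58 ± 0.27, adjusted p = 0.456).

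The list of GLUT4 traffic, which holds 12 genes that move the transporter to and from the cell surface or relay insulin to it, also had 0 members past the test in the 3 main comparisons. In diabetes against control the smallest p values belonged to Insr, the insulin receptor (-0.56 ± 0.27, edgeR, adjusted p = 0.407), and Aspscr1, which tethers GLUT4 vesicles (0.58 ± 0.28, adjusted p = 0.422). Insr was at 29.2 to 42.4 CPM in diabetes and 45.7 to 60.5 CPM in control. In curcumin against diabetes they were Aspscr1 (-0.96 ± 0.29, adjusted p = 0.133) and Sort1, a sorting receptor (1.07 ± 0.33, adjusted p = 0.137). In garlic against diabetes they were Insr (0.84 ± 0.30, adjusted p = 0.361) and Aspscr1 (-0.63 ± 0.33, adjusted p = 0.514).

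Hk1 (ENSMUSG00000037012), the main brain hexokinase, had the highest CPM of the 9 genes in every library, uncorrected for length. It stood at 347, 350.0 and 224 CPM in control, 309, 244, 293 and 244 in diabetes, 357, 329 and 239.8 in curcumin and 336 and 251 in garlic libraries. Each group spanned much the same range, and the lowest library was control replicate 3. The log2 change was -0.17 ± 0.23 between diabetes and control (edgeR, adjusted p = 0.916), 0.18 ± 0.23 between curcumin and diabetes (adjusted p = 0.771) and 0.11 ± 0.26 between garlic and diabetes (adjusted p = 1.00). Its 95% interval between diabetes and control was -0.62 to 0.27. The overlapping antisense gene Hk1os held 394 counts, against 72041 for Hk1.

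Astrocyte markers moved with Hk1 across libraries. Over the 12 libraries, Pearson's r between the log2 levels of Hk1 and of the summed 7 markers was 0.67 (permutation p = 0.00065, adjusted p = 0.0175 over 27 relations) and rho was 0.76 (permutation p = 0.00619, adjusted p = 0.0802). Without control replicate 3 and curcumin replicate 1, the libraries farthest from the median sum, r was 0.63 (permutation p = 0.0544), so this relation too no longer passed 0.05 without them. No batch is given in the labels, and no group has enough libraries for an r of its own. With the summed neuronal markers r of Hk1 was 0.51 (permutation p = 0.0877, adjusted p = 0.312). The part of astrocyte content in the Hk1 values was not tested.

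Hk2 (ENSMUSG00000000628), the insulin-regulated hexokinase of muscle and fat, was at 4.56, 3.76 and 5.21 CPM in control, 5.51, 5.52, 2.78 and 5.89 in diabetes, 3.31, 3.03 and 8.08 in curcumin and 4.74 and 5.69 in garlic libraries. Every pair of groups overlapped. Its log2 change was 0.13 ± 0.57 between diabetes and control (edgeR, adjusted p = 0.992), -0.04 ± 0.57 between curcumin and diabetes (adjusted p = 0.986) and 0.08 ± 0.65 between garlic and diabetes (adjusted p = 1.00). Within a library, the level of Hk1 per kilobase was 20.8 to 76.1 times that of Hk2. Both ends of that range were in curcumin libraries, so the balance of the hexokinases varied as much within the treated group as over all 12 libraries.

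Of 31 further genes of glycolysis and pyruvate entry, 0 passed in the 3 main comparisons, and Ldha, which interconverts pyruvate and lactate, had the smallest p of the list in each. Ldha was at 184, 160.0, 295 and 247 CPM in diabetes replicates 1 to 4. Control libraries were at 137, 138 and 114 CPM, curcumin libraries at 116, 121 and 141 CPM and garlic libraries at 108 and 95.7 CPM. All 4 diabetes libraries were thus above all 8 others. In either direction, 14.7% of all genes did not overlap between diabetes and control. The share was 9.62% between curcumin and diabetes and 20.8% between garlic and diabetes. Of the 31 genes, 7 were higher and 2 lower in diabetes than in control without overlap. Summed blood markers were higher in the 4 diabetes libraries than in all control and garlic libraries too. They were at 264 to 1755 CPM there, against 87.5 to 196 CPM in control, 122 to 504 CPM in curcumin and 115 to 154 CPM in garlic. Their part in the Ldha values was not tested. The log2 change was 0.77 ± 0.23 between diabetes and control (edgeR, adjusted p = 0.216), -0.81 ± 0.23 between curcumin and diabetes (adjusted p = 0.116) and -1.12 ± 0.27 between garlic and diabetes (adjusted p = 0.180). The next genes by p were Mpc2, a subunit of the mitochondrial pyruvate carrier, in diabetes against control (1.08 ± 0.37, adjusted p = 0.294) and garlic against diabetes (-1.28 ± 0.43, adjusted p = 0.349), and Pfkp, a phosphofructokinase, in curcumin against diabetes (0.58 ± 0.22, adjusted p = 0.198).

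Kcnj11 (ENSMUSG00000096146), the pore of the ATP-sensitive channel, was level across groups. It stood at 30.6, 24.5 and 23.8 CPM in control, 22.4, 25.7, 32.3 and 24.4 in diabetes, 27.8, 34.8 and 27.1 in curcumin and 31.3 and 20.3 in garlic libraries. Its log2 change was -0.01 ± 0.25 between diabetes and control (edgeR, adjusted p = 0.999), with a 95% interval of -0.50 to 0.49, and the sign depended on the scaling. Between curcumin and diabetes it was 0.19 ± 0.25 (adjusted p = 0.782) and between garlic and diabetes -0.02 ± 0.29 (adjusted p = 1.00).

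Abcc8 (ENSMUSG00000040136), the regulatory subunit that binds sulfonylurea drugs, had lower values in diabetes without passing the adjusted test. Its levels were 27.8, 30.7 and 28.6 CPM in control and 20.2, 23.5, 22.1 and 10.4 CPM in diabetes libraries. The curcumin libraries were at 39.9, 26.8 and 23.7 CPM and the garlic libraries at 23.9 and 22.8 CPM. All diabetes libraries were below all control and all curcumin libraries, though diabetes replicate 2 and curcumin replicate 3 almost met, at 23.5 and 23.7 CPM. Diabetes replicate 4 was the lowest library and curcumin replicate 1 the highest.

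Between diabetes and control, the log2 change of Abcc8 was -0.61 ± 0.29, a level 0.656 times that of control, with a 95% interval of -1.17 to -0.04 (edgeR, unadjusted p = 0.0489, adjusted p = 0.406). It was -0.41 without diabetes replicate 4 (unadjusted p = 0.146) and ranged from -0.81 to -0.40 over all alternatives, with adjusted p values of 0.117 or more. Between curcumin and diabetes it was 0.66 ± 0.29, a level 1.58 times that of diabetes (interval 0.10 to 1.23, edgeR, unadjusted p = 0.0337, adjusted p = 0.253). That change was 0.40 without curcumin replicate 1 (unadjusted p = 0.201), 0.46 without diabetes replicate 4, 0.53 without the 2 doubted libraries and 0.35 with the length correction, and adjusted p values over the alternatives were 0.136 or more. Between garlic and diabetes it was 0.30 ± 0.33 (adjusted p = 0.940).

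By mean the order of Abcc8 was curcumin (30.1 ± 8.61 CPM), control (29.0 ± 1.48), garlic (23.4 ± 0.761) and diabetes (19.1 ± 5.91). Curcumin overlapped with control and garlic with diabetes, whereas all control libraries were above both garlic libraries. Between garlic and control 12.8% of all genes did not overlap, in either direction. The ratio of Kcnj11 to Abcc8 per kilobase was 1.76 to 2.42 in control libraries and 2.41 to 5.14 in diabetes, and with curcumin it was 1.53 to 2.86. The highest ratio was in diabetes replicate 4, where Abcc8 was lowest, and the other 3 diabetes libraries lay between 2.41 and 3.21.

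The 2 subunits of the vascular and muscle form of the channel, Kcnj8 (Kir6.1) and Abcc9 (SUR2), did not pass in the 3 main comparisons. Abcc9 was at 5.36 to 8.02 CPM in control libraries, 1.91 to 10.5 CPM in diabetes, 10.2 to 16.3 CPM with curcumin and 5.42 to 10.5 CPM with garlic. Its log2 change was -0.27 ± 0.54 between diabetes and control (edgeR, adjusted p = 0.965), 1.42 ± 0.54 between curcumin and diabetes (adjusted p = 0.202) and 0.60 ± 0.60 between garlic and diabetes (adjusted p = 0.918). Kcnj8 had log2 changes of 0.30 ± 0.76, -0.13 ± 0.75 and -0.37 ± 0.87 in the same comparisons, with adjusted p values of 0.978, 0.965 and 1.00. In curcumin replicates 1 to 3 Abcc9 was at 16.3, 10.2 and 15.7 CPM, and the endothelial and pericyte sum was 423, 676 and 249.8 CPM. The part of vessel content in the Abcc9 values was not tested.

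**Figure D4:**
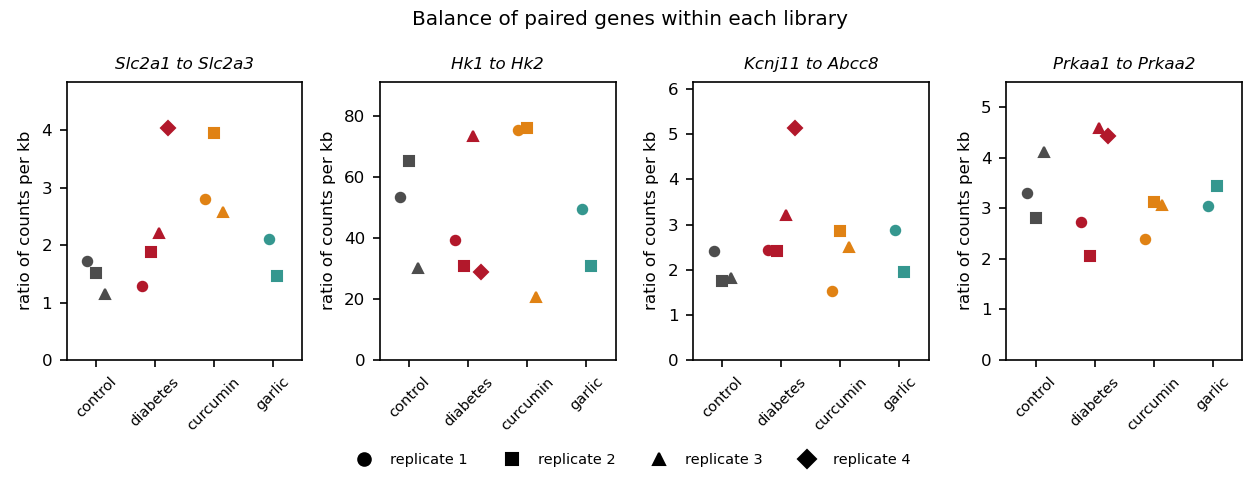
Ratio of counts per kilobase between 2 related genes in each library (vertical axes, from 0), by group, with symbols for replicates. The Slc2a1 to Slc2a3 ratio is 2.58 to 3.95 in curcumin and 1.14 to 1.73 in control libraries, and the Kcnj11 to Abcc8 ratio is highest in diabetes replicate 4, at 5.14.

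Prkaa1 (ENSMUSG00000050697), which encodes the alpha1 catalytic subunit of the kinase, also had lower values in diabetes without passing the adjusted test. It stood at 47.5, 41.0 and 45.2 CPM in control and 31.9, 29.1, 32.6 and 37.9 CPM in diabetes libraries. The curcumin libraries were at 39.4, 35.6 and 38.7 CPM and the garlic libraries at 45.8 and 40.2 CPM. All diabetes libraries were below all control and both garlic libraries, and diabetes replicate 4 lay within the curcumin range.

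Between diabetes and control, the log2 change of Prkaa1 was -0.44 ± 0.21, a level 0.737 times that of control, with a 95% interval of -0.85 to -0.03 (edgeR, unadjusted p = 0.0498, adjusted p = 0.407). It stayed between -0.53 and -0.39 over all alternatives, with adjusted p values of 0.163 or more, and was -0.53 without the 2 doubted libraries. Between garlic and diabetes it was 0.39 ± 0.24 (unadjusted p = 0.118, edgeR, adjusted p = 0.637), and between curcumin and diabetes 0.20 ± 0.21 (adjusted p = 0.702). By mean the order was control (44.6 ± 3.30 CPM), garlic (43.0 ± 3.96), curcumin (37.9 ± 2.01) and diabetes (32.9 ± 3.66). Control overlapped with garlic and curcumin with diabetes, but both garlic libraries were above all 3 curcumin libraries, as were all 3 control libraries. In either direction, 14.1% of all genes did not overlap between the treatments and 8.65% between curcumin and control.

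The summed level of 7 neuronal markers had the same order of non-overlap between diabetes and control, at 2936 to 3200 and 3563 to 3870 CPM. It was 3043 to 4534 CPM in curcumin and 3471 to 3934 CPM in garlic libraries. Of the 7 markers, only 3 (Snap25, Map2 and Syt1) were lower in diabetes than in control without overlap, as were 8.94% of all genes. By log2 change 6 were lower and 1 was higher. The higher one was Tubb3, with a mean of 645 CPM in diabetes and 487 CPM in control. Over the 12 libraries, r between the log2 levels of Prkaa1 and of that sum was 0.55 (permutation p = 0.0641, adjusted p = 0.312 over 27 relations) and rho was 0.66 (permutation p = 0.0234, adjusted p = 0.126). Without diabetes replicate 2 and curcumin replicate 2, the libraries farthest from the median sum, r was 0.83 (permutation p = 0.00265, not adjusted). For Abcc8 and the same sum r was 0.46 (permutation p = 0.130, adjusted p = 0.352) and rho 0.57 (permutation p = 0.0562, adjusted p = 0.196), and r was 0.57 without those 2 libraries (permutation p = 0.0755). For Slc2a3 and the neuronal sum the 2 values of r were 0.57 and 0.82. For Prkaa1 and the astrocyte sum r was -0.04, or 0.84 without control replicate 3 and curcumin replicate 1 (permutation p = 0.00292, not adjusted). Such a relation was thus not particular to Prkaa1 or to neuronal markers. The part of neuronal content, and that of the lower number of detected genes in diabetes libraries, in the Prkaa1 and Abcc8 values was not tested separately. With the number of detected genes as a covariate, the log2 change between diabetes and control was -0.48 for Prkaa1 (unadjusted p = 0.203) and -0.81 for Abcc8 (unadjusted p = 0.0980).

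Prkaa2 (ENSMUSG00000028518), which encodes the alpha2 subunit, was at 24.7, 25.0 and 18.9 CPM in control, 20.0, 24.3, 12.2 and 14.6 in diabetes, 28.3, 19.5 and 21.6 in curcumin and 25.8 and 20.1 in garlic libraries. The lowest libraries were diabetes replicates 3 and 4, while diabetes replicates 1 and 2 lay within the control range. Its log2 change was -0.36 ± 0.29 between diabetes and control (edgeR, adjusted p = 0.751), 0.38 ± 0.29 between curcumin and diabetes (adjusted p = 0.573) and 0.37 ± 0.33 between garlic and diabetes (adjusted p = 0.877). The ratio of Prkaa1 to Prkaa2 per kilobase was 2.81 to 4.10 in control and 2.05 to 4.59 in diabetes libraries, so the alpha1 transcript was the more abundant in every library and the groups overlapped.

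The list of partners of the kinase, the kinases that switch it on and its targets held 26 genes, of which 25 were tested and 0 passed in the 3 main comparisons. In diabetes against control the smallest p values were those of Crtc2, a coactivator that is a target of the kinase family (-0.53 ± 0.26, edgeR, adjusted p = 0.424), and Map3k7, which encodes the kinase TAK1 (-0.41 ± 0.21, adjusted p = 0.453). In curcumin against diabetes they were Camkk2, the calcium-dependent activator of the kinase (0.69 ± 0.25, adjusted p = 0.184), and Ulk1, a target that starts autophagy (0.52 ± 0.21, adjusted p = 0.224). Camkk2 was at 62.3 to 75.9 CPM in curcumin and 26.1 to 52.1 CPM in diabetes libraries, without overlap. Of all genes, 5.43% were higher with curcumin without overlap. In garlic against diabetes they were Fnip1, a folliculin partner that binds the kinase (0.69 ± 0.30, adjusted p = 0.423), and Map3k7 (0.51 ± 0.23, adjusted p = 0.440).

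The genes whose log2 levels followed a member most closely over the 12 libraries were ranked by Pearson's r among 13799 genes, as a description that reflects the libraries' shared composition and depth. For Slc2a1 they were Lamb2, a laminin of vessel basement membranes (0.92), Wls (0.87) and Ism1 (0.87). For Hk1 they included Klhdc7a (0.94) and Lrfn5 (0.93). Slc2a4 was followed most closely by Gng5 (0.96), Hk2 by Dynlt1a (0.90) and Kcnj11 by Rab11fip5 (0.86). Abcc8 was followed by Rapgefl1 (0.95), Prkaa1 by Cyld (0.91) and Prkaa2 by Atp7a (0.98).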

How the data were processed

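The authors deposited 1 table of raw read counts per gene (whole numbers, not normalized) for 12 hypothalamus libraries. Per the labels' protocols, stranded poly-A libraries were sequenced as paired reads of 150 bases, and the submitters' processing notes name FastQC, featureCounts and the GRCm39 genome. For the aligner, annotation release and strand setting nothing was found (not given in the sources used here), so counts of overlapping and antisense genes are uncertain. Symbols came from GENCODE M21 on GRCm38 and RefSeq synonyms, and lengths, as the merged exons of each gene, from GENCODE M21. Of 78334 identifiers, 51486 (65.7%, 97.8% of counts) had a symbol. Because the builds differ, no gene coordinates are given beyond those of the RefSeq promoters, which are on GRCm38.p6.

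Low-count genes were removed by filterByExpr on the groups (25562 kept) and scaled by TMM (factors 0.888 to 1.08). All 12 libraries were fitted in 1 edgeR 4.0.16 quasi-likelihood model (R 4.3.3), with Benjamini-Hochberg adjustment over all genes and a threshold of 0.05. The common dispersion was 0.653. The quasi-likelihood test reports no SE, so each SE was derived as the size of the log2 change divided by the square root of F. The 95% intervals are 1.96 SE to each side. Alternatives used RLE scaling, DESeq2 1.42.0, limma 3.58.1 voom with library weights, no filter, a filter of 1 CPM in 6 libraries, a replicate block, a covariate for detected genes, a length correction, only the groups compared, and libraries left out. Each pair of libraries gave a chi-square of at least 19.67 per degree of freedom, so none looked like 1 library deposited again. Correlations used log2(CPM + 1), except the ranking of similar genes (prior count 2, mean of at least 1 CPM), and permutation tests used 100000 two-sided draws. The fit was tested on simulated data. From each of 5 pathway lists the 2 genes of smallest p per main comparison are named, as no member passed. A few further genes are named after their values were seen, and some genes that the rule for similar genes names are not reported here. The members and lists were chosen with earlier results of these data known.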

Additional observations from a re-analysis of the deposited data

Results flagged for a closer look

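In groups of 4 libraries, a library is given here when its gap to the nearest other exceeds the 95% critical value of Dixon's test. Of 19 sets of diabetes values examined, 3 did so, and chance gives about 1 in 20. Hk2 was at 2.78 CPM in diabetes replicate 3, against 5.51 to 5.89 CPM in the other diabetes libraries. The summed pituitary markers were at 857 CPM in diabetes replicate 4, against 1.48 to 3.89 CPM in the others. The summed blood markers were at 1755 CPM in that library, against 264 to 469 CPM in the others.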

How the results depend on the processing

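None of the 9 genes was called in any of 96 pairings of an alternative setting with 1 of the 6 comparisons. Pairings of the same setting mostly share a fit. In these pairings 0% to 7.79% of all genes were called, the most between curcumin and diabetes without curcumin replicate 2 (4.32% without the doubted libraries). Of 450 log2 changes in the 3 main comparisons, 416 kept their direction and 34 reversed, with adjusted p values of 0.117 or more. The reversals concern genes whose change in the main fit was smaller than its SE, though reversed values reached 0.31 for Hk2 and 0.29 for Slc2a1. Between diabetes and control, Hk2 was -0.0717 with the covariate for detected genes. Kcnj11 was 0.0486 with RLE scaling, 0.0459 with DESeq2, 0.0275 with the stricter filter, 0.0309 with the replicate block, 0.27 with the covariate, 0.000878 with the length correction, 0.0093 without the 2 doubted libraries and -0.12 to 0.12 with 1 library left out. Between curcumin and diabetes, Hk1 was -0.10 and Slc2a3 -0.16 with the length correction. Hk2 was 0.14 with voom, 0.0212 with the covariate, 0.31 without the doubted libraries and -0.64 to 0.24 with 1 library left out. Between garlic and diabetes, Hk1 was -0.0766 with the replicate block, -0.0376 with the length correction and -0.13 to 0.30 with 1 library left out, and Hk2 -0.12 to 0.19. Kcnj11 was 0.0271 without the filter, 0.0478 in a fit of the 2 groups alone and -0.38 to 0.26 with 1 library left out. Slc2a1 was 0.11 with the replicate block, 0.26 without the doubted libraries and -0.59 to 0.29 with 1 library left out. A lone garlic library is assumed to vary like the other groups.

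In the labels, same-numbered libraries share only a number. Over 15 such pairs the correlation of deviations from group means ran from -0.27 to 0.43, with 5 over 0.1. Of 12 libraries, 6 correlated best with their own number. In a group of 2 the deviations mirror each other, as for control replicate 1 with garlic replicates 1 and 2 (0.43 and -0.43). These values therefore cannot tell whether the numbers mark a pairing. With the replicate block Abcc8 was at -0.40 between diabetes and control and 0.44 between curcumin and diabetes, and 0 members were called. The median change of all genes between diabetes and control was -0.07, or -0.32 with voom, and between garlic and diabetes 0.07, or 0.26 with DESeq2, 0.33 with voom and 0.35 without the filter. Counts of members whose groups do not overlap, the curcumin change of Slc2a1 against control and the correlations were varied by alternatives chosen after seeing the data. The first was 4 between curcumin and diabetes without the doubted libraries, where 29.6% of all genes did not overlap, against 9.62% with all libraries. With 1 library left out it was 2 to 5 between diabetes and control (17.8% to 25.0% of all genes), 1 to 3 between curcumin and diabetes (12.3% to 25.8%) and 1 to 5 between garlic and diabetes (26.1% to 41.0%). The correlation of Slc2a1 with endothelial and pericyte markers was 0.59 without the doubted libraries (permutation p = 0.0696). Slc2a4 and Hk2, with 138 and 163 counts or fewer per library, had the widest intervals, and the part of depth in that was not tested.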

Other observations

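Slc2a2, which encodes the glucose transporter GLUT2 and is named here after its values were seen, was between 0 and 0.707 CPM in all 12 libraries.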
